A study of Mus musculus with 32 samples.

Results

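Brown adipose tissue (BAT) and heart of wild-type (WT) male C57BL/6J mice were compared by RNA sequencing, with 4 libraries of each tissue and all genes in the table considered. These 8 libraries are part of 32, which fall into 8 groups of 4 (BAT, heart, liver and skeletal muscle, each from WT mice and from SMIM30 knockout mice, labelled Mut). Per the labels, tissues came from 4 individual male mice, were frozen in liquid nitrogen after sacrifice, and gave total RNA for strand-specific libraries. The age of the mice and whether 1 mouse gave both tissues are not stated. WT liver and muscle were used here to find the tissue in which a gene was highest, and the libraries labelled Mut of BAT and heart served as a repeat of the tissue comparison in other mice.

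Both tissues are dense in mitochondria and burn fatty acids, and they spend the energy differently. In brown adipocytes, noradrenaline acting on beta-adrenergic receptors releases fatty acids from lipid droplets, and uncoupling protein 1 (UCP1) lets protons return to the mitochondrial matrix without passing ATP synthase, so that the energy of respiration leaves as heat. In cardiac myocytes the proton gradient drives ATP synthase, and the ATP is carried, partly as creatine phosphate, to myosin and to the calcium pumps that run each beat.

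Levels are given in TPM, the transcript abundance that divides by transcript length and sums to the same total in each library. Differences are BAT minus heart on the log2(TPM + 1) scale, each with its standard error (SE), and adjusted p is that of limma with Benjamini-Hochberg adjustment over all genes tested. A gene was called higher in a tissue at an adjusted p under 0.05, and at least 2-fold higher if the log2 difference was also 1 or more. Ratios called fold are ratios of mean TPM. The pseudocount of 1 makes the log2 difference of a gene at low TPM smaller than its fold.

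The markers of brown adipocytes and cardiac myocytes followed the labels. Ucp1 stood at 2444, 2837, 3417 and 3565 TPM in the 4 BAT libraries and at 46.2, 49.9, 44.9 and 52.6 TPM in the 4 heart libraries, a log2 difference of 5.94 ± 0.12 SE (limma adjusted p = 2.4e-11). Myh6, the main myosin heavy chain of the mouse heart, stood at 55.4, 57.6, 63.2 and 58.3 TPM in BAT and at 4463, 4673, 4365 and 4997 TPM in heart, a log2 difference of -6.28 ± 0.07 SE (limma adjusted p = 9.2e-13). The groups were far apart for both genes. Neither gene was at 0 in the other tissue. The lower level was 1.58% of the higher for Ucp1 and 1.27% for Myh6. Ucp1 was also found at 57.4 TPM in WT liver and 62.7 TPM in WT muscle. The median of 8 brown adipocyte markers in heart was 1.78% of their BAT level, and that of 8 cardiac myocyte markers in BAT was 1.33% of their heart level. Elovl3, an elongase counted among brown fat markers, averaged 17.1 ± 8.18 TPM in BAT and 0.725 ± 0.175 TPM in heart, but its highest level was in WT liver, at 216% of its BAT level. Hepatocyte genes were low in both tissues: 16 of them had a median of 0.96% of the liver level in BAT and 1.01% in heart. A low level of these tissue genes was thus measured in the other tissues too, and its source was not tested. A level of at most 3% of a gene's highest tissue is called floor level here, and a fold whose lower value is at that level depends on the floor. Of the 146 genes named in the text, 32 were at floor level in BAT, 15 in heart and 2 in both.

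The gene of SMIM30, a small membrane protein, is annotated as 2610001J05Rik. It stood at 23.5, 26.8, 32.0 and 32.3 TPM in WT BAT and at 32.7, 37.6, 33.7 and 34.5 TPM in WT heart. The lowest heart library was just above the highest BAT library, and the log2 difference was -0.27 ± 0.11 SE (limma adjusted p = 0.047). The call was lost without BAT library 1 or 2 or without any 1 of the heart libraries (limma adjusted p between 0.057 and 0.13), and also without the filter on low levels (0.19) or the mean-variance trend (0.057). In the libraries labelled Mut it averaged 29.5 ± 2.43 TPM in BAT and 23.6 ± 4.21 TPM in heart (SD, n = 4), so its RNA was present there too, and those libraries are called by their label only.

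Of 51510 genes, the 12333 that averaged 1 TPM or more in these 8 libraries were tested. BAT was higher for 4887 genes (39.6%), heart for 2847 (23.1%), and 4599 were not called. At least 2-fold differences were found for 1534 genes (12.4%) higher in BAT and 1302 (10.6%) higher in heart, a majority that turned with median-ratio scaling (1244 in favour of BAT and 1487 of heart) and with rescaling that left out the mitochondrial and most abundant genes (1405 and 1657). On the log2(TPM + 1) scale, and not by the ratio of mean TPM, BAT exceeded heart by at least 16-fold for 75 genes. On the same scale heart exceeded BAT by at least 16-fold for 135. The libraries of the 2 tissues did not overlap for 57.6% of the genes tested. These p-values measure the spread between mice of 1 tissue, and in bulk tissue a lower share of a cell type and less RNA per cell cannot be told apart. The median log2 difference of all genes tested was 0.15. With median-ratio scaling it was 0.00, and the calls came to 4096 higher in BAT and 4148 higher in heart, so that BAT held 49.7% of the calls in place of 63.2%. The balance between the tissues therefore depends on the scaling. Under all 3 scalings tried, 3972 genes were called higher in BAT and 2846 higher in heart.

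In the libraries labelled Mut, 7061 of the same genes (57.3%) were called higher in BAT and 2195 (17.8%) higher in heart, with a median log2 difference of 0.38. At least 2-fold differences were found there for 2322 genes (18.8%) in favour of BAT and 1020 (8.27%) in favour of heart. Of the 1534 genes at least 2-fold higher in WT BAT, 1461 (95.2%) were at least 2-fold higher in BAT labelled Mut too, which is 62.9% of the 2322 found there. Of the 1302 on the heart side, 979 (75.2%) were, which is 96.0% of the 1020 found there. The BAT minus heart difference itself differed between WT and Mut for 40 genes (0.324%), among them the atrial genes described below.

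**Figure D1:**
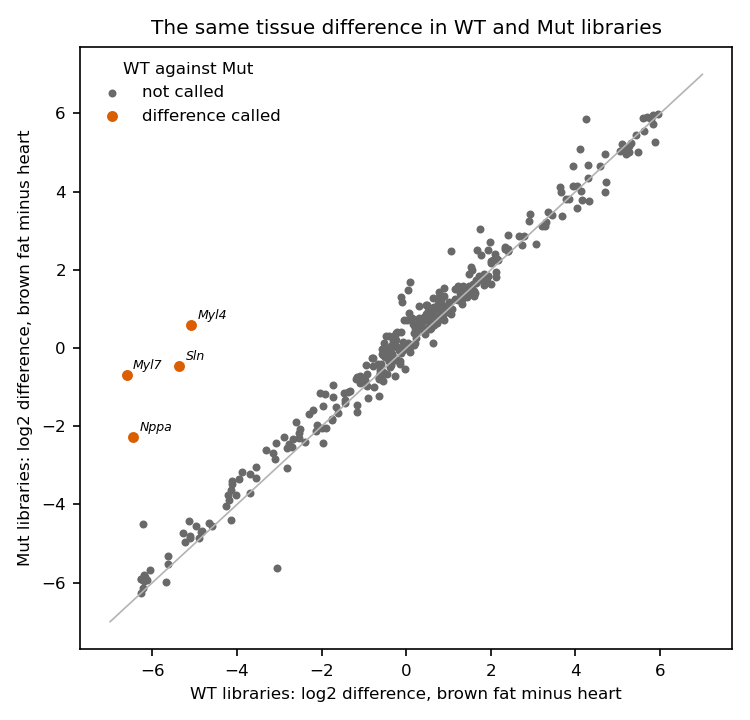
Log2 difference BAT minus heart in the WT libraries (horizontal axis) and in the libraries labelled Mut (vertical axis) of the genes taken by the naming rule; each point is 1 gene, the line marks equal differences, and orange points are genes whose difference was called to depend on the label. Most points lie along the line, and the orange ones are the atrial genes Myl7, Myl4, Sln and Nppa.

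Adipocyte and brown adipocyte genes were mostly on the BAT side. Of 16 tested genes of brown adipocyte identity and heat production, 13 were higher in BAT and 1 in heart, against 39.6% and 23.1% of all genes. Their median log2 difference was 2.44 (0.15 over all genes). Of 19 tested adipocyte hormones and markers, all 19 were higher in BAT (median 4.24). Adrb3, the beta-3 adrenergic receptor through which noradrenaline acts on fat cells, stood at 134, 151, 202 and 177 TPM in BAT and 2.38, 2.56, 2.61 and 2.00 TPM in heart (5.61 ± 0.13 SE, limma adjusted p = 5.3e-11). Prkar2b, the regulatory subunit of protein kinase A that prevails in fat, averaged 409 ± 9.52 TPM in BAT and 6.19 ± 0.842 TPM in heart (SD, n = 4 in each). The kinase is set by cyclic AMP: Pde3b, which breaks it down, averaged 51.3 ± 1.41 and 2.01 ± 0.474 TPM, and Adcy3, which makes it, 38.1 ± 6.79 and 1.36 ± 0.40 TPM. These 4 genes were higher in BAT in every library, with Adrb3 and Prkar2b at floor level in heart, and they are only a part of this signalling chain. The list of natriuretic and adrenergic signalling was divided, with 12 of 22 tested genes higher in BAT and 9 in heart, as described below.

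Otop1 (a proton channel), Cidea (a lipid droplet protein) and Adipoq (the hormone adiponectin) followed the same pattern. Otop1 averaged 85.6 ± 7.23 TPM in BAT against 1.24 ± 0.145 TPM in heart, Cidea 1626 ± 98.2 against 48.0 ± 2.78, and Adipoq 552 ± 53.8 against 9.84 ± 1.80. The heart values of these genes were at floor level. Dio2, which activates thyroid hormone and responds to cold, varied most among the BAT libraries, at 15.5, 5.31, 34.4 and 54.6 TPM, and stood at 0.434, 0.443, 0.501 and 0.565 TPM in heart (3.84 ± 0.53 SE, limma adjusted p = 8.5e-05). BAT libraries 3 and 4 were the highest for Dio2, and BAT library 2 the lowest.

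Genes often named as brown fat genes were not all BAT genes in this comparison. Cox7a1, a subunit of cytochrome c oxidase shared by brown fat and muscle, stood at 1411, 1563, 1476 and 1383 TPM in BAT and 1185, 1425, 1454 and 1116 TPM in heart. The tissues overlapped, and the difference of 0.18 ± 0.09 SE was not called (limma adjusted p = 0.12). Ppargc1a, the coactivator that drives mitochondrial biogenesis, was called higher in heart: it stood at 7.89, 6.89, 11.6 and 22.0 TPM in BAT and 20.5, 21.9, 34.9 and 28.9 TPM in heart, and BAT library 4 lay within the heart range (-1.17 ± 0.30 SE, limma adjusted p = 0.0059). Its relative Ppargc1b was higher in BAT, at 17.8 ± 1.49 against 3.69 ± 0.439 TPM. The difference of Cox8b, another oxidase subunit, was in favour of BAT and modest, with 4377 ± 416 TPM in BAT and 1513 ± 82.8 TPM in heart. The nuclear receptor Esrra, a partner of these coactivators, averaged 76.5 ± 5.14 and 66.1 ± 9.12 TPM and was not called (limma adjusted p = 0.088), except without heart library 4 (0.30, limma adjusted p = 0.019).

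Genes that make fatty acids and triglyceride were nearly all on the BAT side. Of 25 tested, 24 were higher in BAT and 0 in heart (median 2.74), against 39.6% and 23.1% of all genes. The list took 1.34% ± 0.15 of the TPM in BAT and 0.0821% ± 0.0060 in heart (SD, n = 4). Fasn, fatty acid synthase, stood at 1547, 2940.3, 1494 and 877 TPM in BAT and at 23.5, 27.6, 24.3 and 26.8 TPM in heart (5.88 ± 0.28 SE, limma adjusted p = 1.6e-08). BAT library 2 was the highest and BAT library 4 the lowest, while the heart libraries stayed at floor level. Scd1, the desaturase that makes oleate, averaged 4068 ± 554 TPM in BAT and 93.2 ± 5.51 in heart. Pck1, which supplies glycerol phosphate for re-esterification in fat, averaged 1464 ± 37.5 and 39.2 ± 3.56 TPM. Slc25a1, the citrate carrier that exports carbon for synthesis, averaged 139.9 ± 44.1 and 7.34 ± 0.486 TPM. For acetyl-CoA carboxylase, BAT used both genes and heart mostly 1. Acacb made up 50.8% of the summed TPM of Acacb and Acaca in BAT and 93.4% in heart. In heart the enzyme's product is known to restrain fatty acid entry into mitochondria. Both genes were higher in BAT, Acacb by 1.29 and Acaca by 4.70 on the log2 scale (limma adjusted p = 1.9e-05 and 5.9e-10).

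Lipid droplet and lipolysis genes followed, with 13 of 16 higher in BAT and 1 higher in heart (median 2.61), against 39.6% and 23.1% of all genes. The droplet coat differed in kind. Plin1, the perilipin of adipocytes, stood at 765, 812, 915 and 835 TPM in BAT and 12.4, 13.5, 12.9 and 15.6 TPM in heart. Plin5, the perilipin of oxidative tissues, stood at 163, 163, 192 and 164 TPM in BAT and 54.2, 77.5, 78.1 and 83.0 TPM in heart. Plin5 was thus also higher in BAT (1.22 ± 0.13 SE, limma adjusted p = 1.0e-05), yet it made up 17.0% ± 0.52 of the pair's TPM in BAT and 84.1% in heart, because Plin1 in heart was at floor level. The lipases were on the BAT side: Lipe (hormone-sensitive lipase) averaged 634 ± 66.8 and 31.5 ± 2.84 TPM, and Pnpla2 (adipose triglyceride lipase) 1277 ± 60.2 and 185 ± 19.9 TPM. Fitm1, a droplet-forming protein of muscle, was the member higher in heart, at 100.4 ± 8.80 against 5.50 ± 0.278 TPM.

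Fatty acid uptake was shared more evenly. Of 18 tested genes, 13 were higher in BAT and 3 in heart (median 0.74), against 39.6% and 23.1% of all genes. Cd36, the fatty acid translocase, averaged 1058 ± 124 TPM in BAT and 804 ± 58.3 TPM in heart (0.39 ± 0.09 SE, limma adjusted p = 0.0037). Lpl, the lipase that frees fatty acids from circulating lipoproteins, chosen after its values were seen, stood at 909, 938, 907 and 839 TPM in BAT and 866, 952, 991 and 991 TPM in heart. The Lpl libraries of the tissues overlapped, and the difference of -0.08 ± 0.07 SE was not called (limma adjusted p = 0.33), though with median-ratio scaling it was -0.26 and called higher in heart. The intracellular fatty acid binding proteins exchanged places. Fabp4, the adipocyte form, averaged 11402 ± 1049 TPM in BAT and 917 ± 94.8 in heart, and Fabp3, the heart form, 1704 ± 184 and 3846 ± 272 TPM. Fabp3 accounted for 13.1% of the summed TPM of the pair in BAT and 80.8% in heart. Angptl4, which inhibits lipoprotein lipase, was higher in BAT at 160.2 ± 4.53 against 9.56 ± 1.34 TPM.

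The contractile genes were on the heart side. Of 32 tested sarcomere genes, 31 were higher in heart and 0 in BAT (median -4.67), against 23.1% and 39.6% of all genes. Together they took 4.89% ± 0.16 of the TPM in heart and 0.142% ± 0.0081 in BAT (SD, n = 4). Myl2, the ventricular regulatory light chain, stood at 7598, 8099, 7701 and 6936 TPM in heart and 92.5, 94.7, 106 and 97.2 TPM in BAT. Actc1, cardiac actin, averaged 5448 ± 444 TPM in heart and 71.8 ± 7.72 in BAT, and Tnni3, cardiac troponin I, 4568 ± 271 and 61.2 ± 1.68 TPM. Tnnt2, cardiac troponin T, stood at 6235, 7035, 6886 and 7704 TPM in heart and 89.8, 92.0, 104 and 92.9 TPM in BAT (-6.18 ± 0.08 SE, limma adjusted p = 1.8e-12). Every BAT value of these genes was at floor level, so the ratio of the means is that of the tissue to the floor. Mb, myoglobin, which stores oxygen in muscle, averaged 8501 ± 185 TPM in heart and 172 ± 11.6 TPM in BAT.

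Promoters of sarcomere genes were searched because these genes were high together. The 250 bases before the RefSeq gene start (build GRCm38.p6) were read on both strands for 10 short motifs, in the 9376 tested genes that have an entry, and a gene with several starts counted if any of them held a match. CATTCC, the core bound by TEAD factors, was found in 10 of 27 sarcomere genes (37.0%), in 16.6% of genes at least 2-fold higher in heart, in 12.6% of those at least 2-fold higher in BAT and in 13.0% of all tested genes. The motif was chosen for description after these shares had been seen, and a match describes the letters and is not a binding site. In 3 thin filament genes (troponin T, tropomyosin 1 and troponin C, the last chosen after its values were seen) the match begins at -27, -56 and -58 from the start. RefSeq has another start of Tnnt2 (chr1:135836889-135836988 for the 100 bases before it), and those bases hold 0 matches. The 100 bases before the start are shown 5′ to 3′ on the gene's strand, with the match in capitals (CATTCC or its reverse complement).
Tnnt2 (chr1:135836234-135836333, plus strand): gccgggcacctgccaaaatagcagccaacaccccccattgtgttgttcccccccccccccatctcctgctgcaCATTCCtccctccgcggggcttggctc
Tpm1 (chr9:67049214-67049313, minus strand): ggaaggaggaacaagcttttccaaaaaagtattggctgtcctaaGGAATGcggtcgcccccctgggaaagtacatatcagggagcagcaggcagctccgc
Tnnc1 (chr14:31208212-31208311, plus strand): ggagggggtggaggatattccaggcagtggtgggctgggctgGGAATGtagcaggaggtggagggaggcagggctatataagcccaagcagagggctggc
Tpm1 averaged 6147 ± 300.1 TPM in heart and 352 ± 25.4 in BAT, and Tnnc1 1712 ± 227 and 24.4 ± 1.67 TPM. ACTTCCG, a core read by ETS factors such as GABP, was in 0 of 27 sarcomere promoters, in 16 of 68 promoters of mitochondrial ribosome genes (23.5%), and in 11.3% of all tested genes.

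Genes of excitation and calcium handling were more often higher in heart than in BAT. Of 30 calcium cycling genes, 19 were higher in heart, 4 were higher in BAT and 7 were not called (median -1.54). Of these 30, 11 were at floor level in BAT and 4 in both tissues. In the libraries labelled Mut, 15 were higher in heart and 9 in BAT (median -0.62). Of 27 ion channel and gap junction genes, 21 were higher in heart and 2 in BAT (median -2.0), or 19 and 3 in libraries labelled Mut. All genes tested gave 23.1% and 39.6% in WT, and 17.8% and 57.3% in libraries labelled Mut. Atp2a2, the calcium pump of the sarcoplasmic reticulum, averaged 3288 ± 406 TPM in heart and 109 ± 11.0 in BAT, and its inhibitor Pln 2569 ± 270.3 and 32.2 ± 2.26 TPM. Ryr2, the release channel of the heart, stood at 101, 141, 124 and 141 TPM in heart and 2.48, 2.53, 4.34 and 4.55 TPM in BAT. The release channels on the BAT side were IP3 receptors: Itpr2 averaged 20.5 ± 3.52 TPM in BAT and 2.19 ± 0.230 in heart, and Itpr1 22.0 ± 4.23 and 6.65 ± 1.43 TPM. Stim1, the sensor of calcium stores, was also higher in BAT (39.6 ± 3.68 against 8.53 ± 0.937 TPM).

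The potassium channel subunit Kcnip2 averaged 54.1 ± 1.32 TPM in heart and 0.613 ± 0.200 in BAT. Among 18 tested cardiac transcription factors, 16 were higher in heart (median -2.76), against 23.1% of all genes. Gata4 averaged 34.7 ± 2.43 and 0.417 ± 0.0888 TPM, and Nkx2-5 24.4 ± 2.20 and 0.332 ± 0.0406 TPM, in heart and BAT. The factor on the BAT side was Tbx3, known from the conduction system, at 5.13 ± 1.00 against 2.69 ± 0.334 TPM. Of 21 adipose transcription factors, 12 were higher in BAT and 2 in heart (median 1.38), against 39.6% and 23.1% of all genes. Cebpa averaged 226 ± 62.3 TPM in BAT and 7.49 ± 1.05 in heart, and Pparg 156 ± 28.3 and 6.89 ± 0.181 TPM. The 2 higher in heart were Rxrg (30.9 ± 1.36 against 15.1 ± 1.35 TPM) and Klf15 (28.4 ± 6.74 against 13.9 ± 1.53 TPM).

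**Figure D2:**
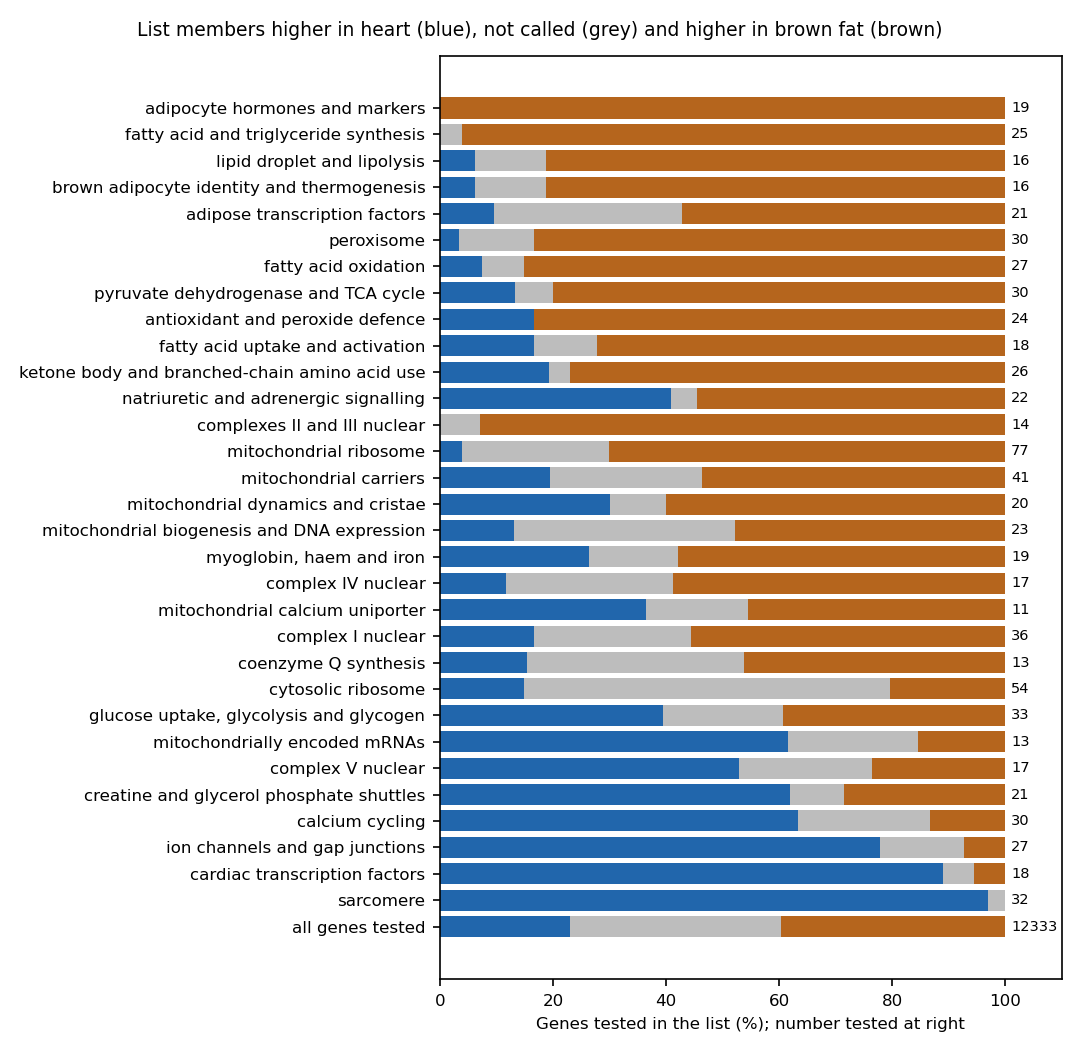
Share of the tested members of each gene list that were higher in heart (blue), not called (grey) or higher in BAT (brown), in percent, with the number tested at the right and all 12333 genes tested in the lowest bar. Bars of the sarcomere, cardiac transcription factor and ion channel lists are mostly blue and those of the adipocyte and lipid synthesis lists mostly brown, against 23.1% and 39.6% over all genes.

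The respiratory chain differed between the tissues in its parts. Mitochondrially encoded genes took 37.6%, 35.5%, 36.1% and 37.7% of the TPM in the BAT libraries and 43.7%, 41.2%, 41.3% and 41.7% in the heart libraries. All heart libraries were above all BAT libraries, a difference of -5.23 points (exact permutation test over the 70 assignments of the libraries, two-sided p = 0.0286, the smallest this design allows). However, 7 annotated copies of mitochondrial genes on nuclear chromosome 1 (between 24611535 and 24616197, GRCm38) took a further 17.0% ± 1.92 in BAT and 15.6% ± 1.52 in heart, and reads of such copies cannot be told apart from those of the mitochondrial genes. With the copies added, the shares were 53.7% ± 2.50 and 57.6% ± 2.07 (SD, n = 4), the libraries overlapped, and the exact permutation p was 0.0857. Levels of single mitochondrial mRNAs share this uncertainty. Of the 13, 2 were called higher in BAT and 8 higher in heart (median -0.21), against 39.6% and 23.1% of all genes.

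Nuclear genes of complexes I to V took 6.81% ± 0.41 of the TPM in BAT and 5.80% ± 0.19 in heart. Every BAT library was above every heart library (exact permutation p = 0.0286). The median log2 difference of all genes tested was also on the BAT side, at 0.15, and this total was not computed under another scaling. For the counts that follow, 39.6% of all genes tested were higher in BAT and 23.1% in heart. Of 36 complex I genes, 20 were higher in BAT and 6 in heart (median 0.20), close to the median of all genes. With median-ratio scaling the counts were 13 and 7. For complexes II and III, 13 of 14 were higher in BAT and 0 in heart (median 0.49). Sdha, the catalytic subunit of succinate dehydrogenase, averaged 945 ± 18.9 TPM in BAT and 564 ± 65.1 TPM in heart. For complex IV, 10 of 17 were higher in BAT and 2 in heart (median 0.30), or 5 and 4 with median-ratio scaling. ATP synthase leaned to heart in WT: of 17 tested genes, 4 were higher in BAT and 9 in heart (median -0.24), or 1 and 10 with median-ratio scaling. In the libraries labelled Mut, 6 of these genes were higher in BAT and 5 in heart (median 0.17). All genes tested gave 57.3% and 17.8% there (median 0.38). In WT the ATP synthase genes took 1.5% ± 0.051 of the TPM in BAT and 1.87% ± 0.089 in heart. Every heart library was above every BAT library.

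Within ATP synthase, 4 of the 9 genes higher in heart differed at least 2-fold, and the other 5, chosen after their values were seen, were Atp5c1 at -0.78, Atp5h at -0.47, Atp5f1 at -0.41, Usmg5 at -0.28 and Atp5o at -0.24. The call of Usmg5 was lost without BAT library 1, 3 or 4 or heart library 2 (limma adjusted p between 0.055 and 0.079). Atp5g1, a gene for the membrane ring (c subunit) whose expression is known to be low in brown fat, stood at 39.6, 47.5, 51.1 and 46.1 TPM in BAT and 1652, 1737, 1690.1 and 1561 TPM in heart (-5.15 ± 0.08 SE, limma adjusted p = 6.1e-12). Atp5g3, another gene for the same c subunit, stood at 368, 435, 412 and 341 TPM in BAT and 2148, 2296, 2234 and 2174 TPM in heart (-2.51 ± 0.08 SE, limma adjusted p = 7.2e-10). No library of one tissue came near the other for either gene, and the BAT level of Atp5g1 was at the floor. Atp5j, a subunit of the stalk, averaged 248 ± 20.4 and 823 ± 47.4 TPM, and Atpif1, the inhibitor of the reverse reaction, 20.9 ± 4.63 and 129.6 ± 8.82 TPM, in BAT and heart. The catalytic head did not follow. Atp5b, its beta subunit, was higher in BAT at 4295 ± 362 against 3084 ± 506 TPM (0.49 ± 0.12 SE, limma adjusted p = 0.0040), and Atp5a1, its alpha subunit, stood at 1508 ± 60.6 and 1676 ± 139.9 TPM and was not called (limma adjusted p = 0.095). The difference of Atp5a1 was called higher in heart with median-ratio scaling, at -0.33, and without heart library 1, at -0.20.

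**Figure D3:**
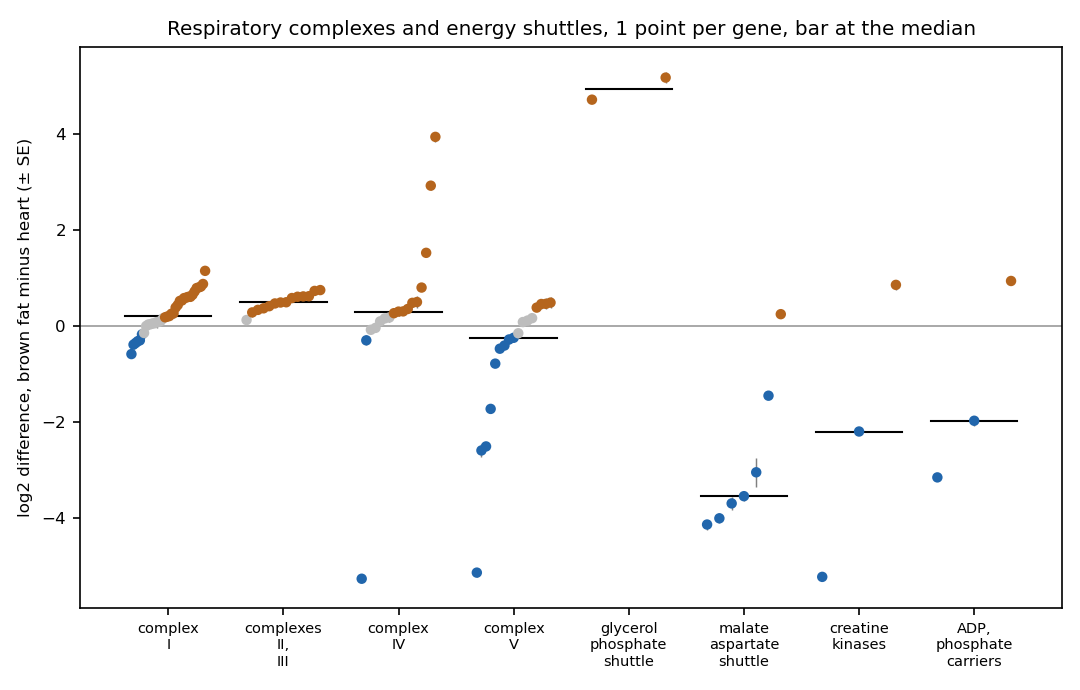
Log2 difference BAT minus heart, with its SE, of the genes of each respiratory complex, shuttle, kinase and carrier group; 1 point per gene, brown if higher in BAT, blue if higher in heart and grey if not called, with a bar at the group's median. ATP synthase (complex V) and malate-aspartate genes reach far to the heart side, with Atp5g1 at -5.15, and both glycerol phosphate shuttle genes lie to the BAT side at 5.19 and 4.73.

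Of the carriers that feed ATP synthase with ADP and phosphate, Slc25a3 and Slc25a4 were higher in heart and Slc25a5 was higher in BAT. Of 41 mitochondrial carriers, 22 were higher in BAT and 8 in heart (median 0.37), against 39.6% and 23.1% of all genes. Slc25a4, the ADP/ATP carrier of muscle, averaged 302 ± 18.3 TPM in BAT and 2701 ± 96.1 TPM in heart, and Slc25a5, the more widespread carrier, 426 ± 39.5 and 221 ± 10.1 TPM. Slc25a20, which brings acylcarnitines in for oxidation, was higher in BAT at 376 ± 14.7 against 138 ± 4.76 TPM.

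Slc25a3, the phosphate carrier, differed in level and in form. It stood at 257, 296, 356 and 316 TPM in BAT and 1085, 1227, 1250.0 and 1245 TPM in heart (-1.98 ± 0.10 SE, limma adjusted p = 2.4e-08). The gene lies on chromosome 10 and has alternative versions of its coding exon 3. Their sequences are shown because the tissues differ in which of them is used. They come from the GENCODE M21 transcripts (GRCm38), 5′ to 3′ on the gene's strand, with capitals for bases that differ or lack a partner in the alignment of both.
Slc25a3-201 (chr10:91121922-91122043, minus strand, 122 bases): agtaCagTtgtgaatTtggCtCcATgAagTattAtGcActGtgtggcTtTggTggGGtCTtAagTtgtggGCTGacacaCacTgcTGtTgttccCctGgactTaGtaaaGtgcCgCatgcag
Slc25a3-206 (chr10:91122207-91122331, minus strand, 125 bases): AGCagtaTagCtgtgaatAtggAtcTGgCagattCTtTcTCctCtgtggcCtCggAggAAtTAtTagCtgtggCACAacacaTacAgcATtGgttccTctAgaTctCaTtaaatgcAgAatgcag
Of 119 aligned bases, 84 were identical (70.6%). Transcripts with the exon of Slc25a3-201 held 65.9%, 69.0%, 73.4% and 72.1% of the gene's TPM in BAT and 3.42%, 3.38%, 3.02% and 3.23% in heart. The transcript with the exon of Slc25a3-206 held 16.2% ± 1.97 in BAT and 94.3% ± 0.31 in heart (SD, n = 4). No library overlapped. The exon prevailing in heart held 95.2% in WT muscle and 11.5% in WT liver, so that BAT resembled liver and not muscle in this respect. These shares rest on how Salmon divided reads between transcripts.

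Reducing equivalents from the cytosol enter mitochondria through different shuttles, and the tissues were opposite here. In the glycerol phosphate shuttle, cytosolic Gpd1 and its mitochondrial partner Gpd2 pass electrons to ubiquinone. Gpd1 stood at 1687, 2069, 2318 and 2256 TPM in BAT and 54.4, 55.8, 51.1 and 62.5 TPM in heart, and Gpd2 at 151, 158, 160.1 and 158 TPM in BAT and 4.68, 4.92, 4.72 and 5.56 TPM in heart. Both genes were higher in BAT without overlap (5.19 ± 0.11 SE and 4.73 ± 0.08 SE, limma adjusted p = 3.1e-11 and 5.7e-12), with Gpd1 at floor level in heart. Gpd1l, a relative of Gpd1 expressed in heart muscle, made up 0.455% of the pair's TPM in BAT and 21.6% in heart.

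In the malate-aspartate shuttle, which delivers NADH, 6 of 7 tested genes were higher in heart and 1 in BAT (median -3.55). Of all genes tested, 23.1% and 39.6% were. The cytosolic aminotransferase Got1 stood at 15.0, 18.6, 20.1 and 19.0 TPM in BAT and 295, 340.4, 339.9 and 371 TPM in heart, and the mitochondrial Got2 at 19.1, 19.5, 23.7 and 19.9 TPM in BAT and 293, 343, 358 and 395 TPM in heart. Every heart library exceeded every BAT library for both (-4.14 ± 0.10 SE and -4.01 ± 0.11 SE, limma adjusted p = 9.8e-11 and 1.4e-10). The aspartate-glutamate carriers Slc25a12 and Slc25a13 averaged 6.17 ± 0.558 and 2.03 ± 0.407 TPM in BAT and 83.2 ± 9.43 and 38.5 ± 6.27 TPM in heart. The cytosolic malate dehydrogenase Mdh1, at 33.7 ± 15.4 and 267 ± 57.1 TPM, and the malate carrier Slc25a11, at 112 ± 4.56 and 309 ± 27.3 TPM in BAT and heart, were chosen after their values were seen and also were higher in heart. In libraries labelled Mut the difference of Mdh1 was -5.61, against -3.05 ± 0.30 SE in WT (limma interaction adjusted p = 0.056). The exception was Mdh2, a TCA cycle enzyme as well, at 910.0 ± 54.6 TPM in BAT and 766 ± 54.5 TPM in heart. With median-ratio scaling its log2 difference was 0.06. Creatine kinases hand on ATP as creatine phosphate. Ckmt2, in the mitochondria of muscle, averaged 31.8 ± 2.17 TPM in BAT and 1233 ± 14.0 in heart. Ckm averaged 218 ± 7.93 and 1008 ± 58.9 TPM, of which the BAT level is 1.87% of that in muscle and so at the floor, and Ckb, the brain form, 23.7 ± 1.68 and 12.7 ± 1.59 TPM.

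Fuel oxidation genes were mostly on the BAT side. Of 27 tested genes of mitochondrial fatty acid oxidation, 23 were higher in BAT and 2 in heart (median 0.93), against 39.6% and 23.1% of all genes. The list took 1.69% ± 0.062 of the TPM in BAT and 0.854% ± 0.052 in heart. Hadhb, a subunit of the trifunctional protein, averaged 2699 ± 89.3 and 1293 ± 103 TPM, and Acadl, the long-chain dehydrogenase, 1439.7 ± 54.6 and 619.9 ± 49.8 TPM. Both tissues used the muscle form of the entry enzyme: Cpt1b made up 97.7% of the summed TPM of Cpt1b and Cpt1a in BAT and 93.0% in heart. The genes higher in heart were Cpt1a (18.4 ± 2.65 against 10.2 ± 2.48 TPM) and the thioesterase Acot1 (21.3 ± 1.96 against 5.08 ± 2.43 TPM). Of 30 peroxisome genes, 25 were higher in BAT and 1 in heart (median 1.30), against the same 39.6% and 23.1% of all genes. Abcd2, a peroxisomal importer of long acyl chains, averaged 37.9 ± 7.44 and 2.04 ± 0.38 TPM, and Cat, catalase, 309 ± 42.2 and 108 ± 9.33 TPM.

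Of 30 tested genes of pyruvate dehydrogenase and the TCA cycle, 24 were higher in BAT and 4 in heart (median 0.76), against 39.6% and 23.1% of all genes. Pdk4, the kinase that switches pyruvate dehydrogenase off, averaged 833 ± 153 and 207 ± 48.7 TPM, and Pcx, pyruvate carboxylase, 136 ± 9.61 and 11.6 ± 1.41 TPM. Isocitrate dehydrogenase was divided. Idh2, the NADP-linked form, was higher in heart at 913 ± 36.6 against 409.5 ± 64.6 TPM, whereas the NAD-linked subunits Idh3a and Idh3g, chosen after their values were seen, were higher in BAT at 897 ± 65.0 against 322 ± 15.8 TPM and 883 ± 12.5 against 363 ± 34.4 TPM. Idh3b, the remaining subunit, is listed at 647 and 26.4 TPM, but a transcript abundant in heart was not matched to the annotation, so this difference is uncertain.

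Of 26 genes for the use of ketone bodies and branched-chain amino acids, 20 were higher in BAT and 5 in heart (median 0.73). Of all genes tested, 39.6% and 23.1% were. Oxct1, which commits ketone bodies to oxidation, stood at 91.1, 80.6, 90.7 and 92.5 TPM in BAT and 274, 271, 270.5 and 285 TPM in heart (-1.62 ± 0.07 SE, limma adjusted p = 6.2e-09). Bdh1, the preceding enzyme, stood at 3.91, 2.68, 3.49 and 3.41 TPM in BAT and 62.1, 26.1, 18.8 and 24.4 TPM in heart, with heart library 1 well above the other heart libraries. On the side of amino acid breakdown, Bckdha, of the branched-chain keto acid dehydrogenase, averaged 325 ± 21.3 and 146 ± 17.0 TPM, and Slc25a44, a mitochondrial carrier for branched-chain amino acids in brown fat, 25.8 ± 2.02 and 6.00 ± 0.654 TPM. Ppm1k, the phosphatase that activates the same dehydrogenase, was higher in heart at 27.4 ± 4.78 against 5.43 ± 0.868 TPM.

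Of 33 glycolysis and glycogen genes, 13 were higher in BAT and 13 in heart (median -0.11), against 39.6% and 23.1% of all genes, and with median-ratio scaling the counts were 13 and 16 (median -0.29). Isoenzymes of some steps differed in direction. Pfkl stood at 145, 170.3, 249.7 and 217 TPM in BAT and 32.8, 37.7, 33.2 and 38.5 TPM in heart, and Pfkm at 54.4, 56.7, 52.9 and 53.1 TPM in BAT and 304, 359, 354 and 388 TPM in heart. Eno1 averaged 1171 ± 177 and 125 ± 13.5 TPM and Eno3 73.2 ± 4.55 and 738 ± 23.0 TPM, in BAT and heart. Pgam1 averaged 495 ± 66.3 and 47.9 ± 6.67 TPM and Pgam2 27.4 ± 1.34 and 369 ± 37.5 TPM. For each of these steps the widespread form was higher in BAT and the muscle form higher in heart, and the BAT levels of Eno3 and Pgam2 were under 2% of those in muscle. The hexokinase pair went the other way. Its form that prevailed in WT muscle (97.6% of the pair) made up 83.9% in BAT and 67.2% in heart. Gapdh, which has no such partner in the lists, stood at 1583, 1933, 1707 and 1535 TPM in BAT and 1851, 1849, 1801 and 1849.6 TPM in heart, overlapped and was not called (limma adjusted p = 0.17). It was called higher in heart with median-ratio scaling, at -0.31, and without BAT library 2, at -0.19. Pfkfb3, which raises the activator of phosphofructokinase, averaged 104 ± 12.3 TPM in BAT and 4.86 ± 0.316 in heart, and Pfkfb2, the form of heart muscle, 3.77 ± 0.574 and 31.4 ± 3.08 TPM.

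In 27 pairs of related genes, the share of the gene named first in the pair's TPM was described. In 24 pairs the BAT and heart libraries did not overlap (57.6% of all genes tested did not overlap in level), and in 10 the mean shares differed by more than 50 points. Ckmt2 with Ckmt1, Pygm with Pygb and Slc2a4 with Slc2a1 overlapped, and in others, such as Cpt1b with Cpt1a, the same form prevailed in both tissues. The largest shift was in cytochrome c oxidase subunit 6a. Cox6a2, the heart and muscle form, made up 2.24%, 2.02%, 2.74% and 2.63% of the pair in BAT and 93.4%, 93.5%, 93.8% and 94.3% in heart. Cox6a1 stood at 1764 ± 256 TPM in BAT and 113 ± 9.20 in heart, and Cox6a2 at 42.9 ± 2.74 and 1696 ± 81.2 TPM. BAT thus lacked the muscle form of subunit 6a beyond the floor, but had the muscle forms of subunits 7a and 8: Cox7a1 made up 68.0% of its pair with Cox7a2 in BAT and 72.4% in heart, and Cox8b 72.5% and 87.5% of its pair with Cox8a. Even in a ribosomal protein the forms differed, with Rpl3l, a muscle relative of Rpl3, at 3.45% of the pair in BAT and 54.4% in heart. In the kinase AMPK, Prkaa2 made up 30.3% of the 2 catalytic subunits in BAT and 82.6% in heart.

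**Figure D4:**
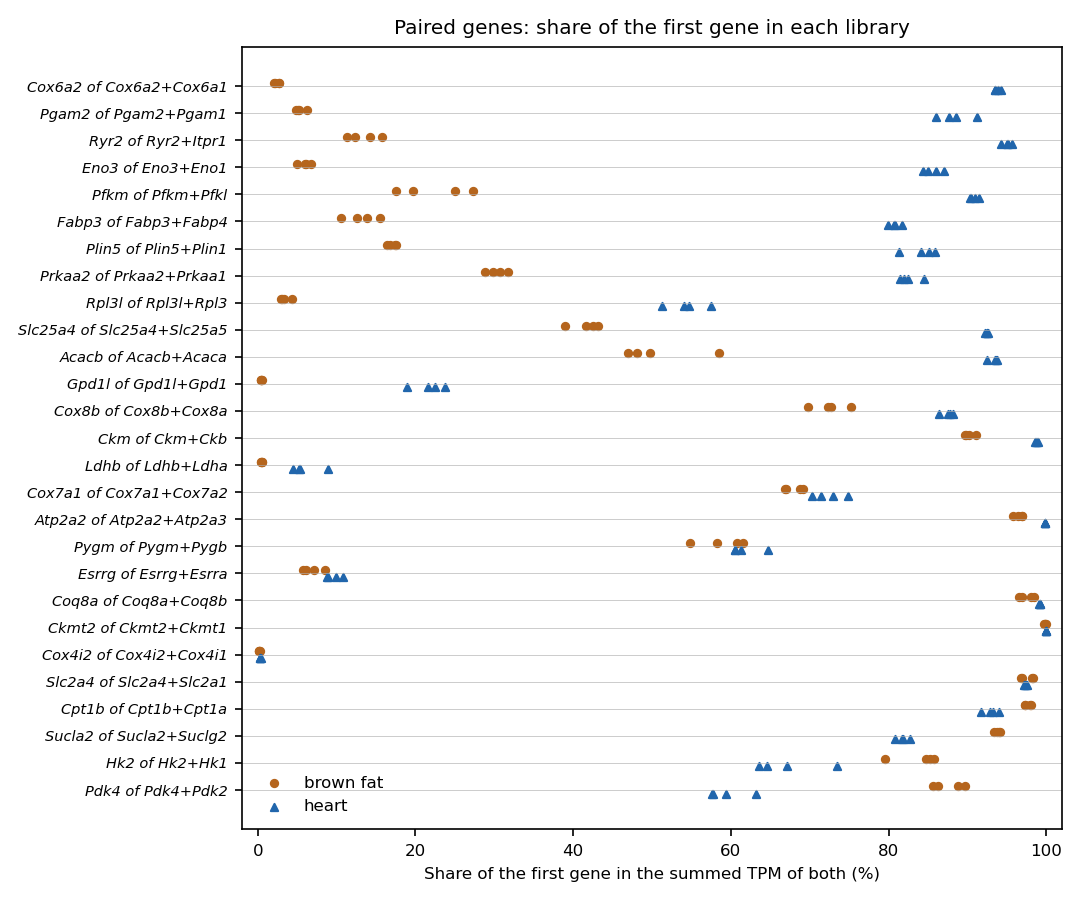
Share of the gene named first in each pair in the summed TPM of both, in percent, for 27 pairs; points are libraries of WT BAT and WT heart. Cox6a2, Pgam2 and Eno3 lie under 10% in BAT and over 80% in heart, whereas Cox7a1 and Cpt1b lie close together in the 2 tissues.

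Single genes also differed in their main transcript. Among 4160 genes with at least 10 TPM in both tissues, the most abundant transcript was one in all 4 BAT libraries and another in all 4 heart libraries for 97 (2.33%), and for 8 the share moved by at least 50 points. In Mfn2, a mitofusin that joins outer membranes, Mfn2-204 held 77.7% ± 1.29 of the TPM in BAT and 0.470% ± 0.71 in heart, and Mfn2-201 15.7% ± 1.30 and 93.7% ± 1.37. These transcripts have the same coding sequence and differ outside it. Mfn2 as a whole was higher in heart at 188 ± 25.7 against 97.8 ± 10.1 TPM, and so was its relative Mfn1, at 105 ± 7.70 against 30.5 ± 0.521 TPM. In Pepd, a peptidase, the leading BAT transcript is annotated as a retained intron, with 67.9% ± 2.05 in BAT and 5.61% ± 2.49 in heart.

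Genes of the mitochondrial ribosome leaned to BAT. Of 77 tested genes of the mitochondrial ribosome, 54 were higher in BAT and 3 in heart (median 0.45), against 39.6% and 23.1% of all genes. With median-ratio scaling the counts were 41 and 9 (median 0.26). The differences were small: 9 of the 77 were at least 2-fold higher in BAT, against 12.4% of all genes. Mrpl20 averaged 118 ± 16.7 and 39.0 ± 2.56 TPM and Mrpl34 156 ± 16.4 and 54.9 ± 3.85 TPM. The cytosolic ribosome took 1.51% ± 0.11 of the TPM in BAT and 1.5% ± 0.079 in heart, with 11 of 54 genes higher in BAT and 8 in heart (median -0.01), or 9 and 26 with median-ratio scaling. In the libraries labelled Mut, 49 of these were higher in BAT and 1 in heart (median 0.69), against 57.3% and 17.8% of all genes there. Of 24 antioxidant genes, 20 were higher in BAT and 4 in heart (median 0.75), against 39.6% and 23.1% of all genes in WT. Gpx1, glutathione peroxidase, averaged 419 ± 37.4 and 65.0 ± 1.19 TPM, and Sod2, the superoxide dismutase of the matrix, 763 ± 67.7 and 469.5 ± 14.0 TPM. Nqo1, a quinone reductase, was higher in heart at 30.2 ± 2.10 against 1.70 ± 0.419 TPM. Nnt, the proton-pumping transhydrogenase, has 2 gene models that share its name and reads, at 1.77 and 3.91 TPM in BAT and 159 and 137 TPM in heart, so that its level is uncertain. Among genes of the calcium uniporter and its neighbours, the outer membrane pores Vdac1, Vdac2 and Vdac3 were higher in heart, with Vdac1 at 507 ± 38.6 against 202 ± 12.4 TPM, and Letm1, an ion exchanger of the inner membrane, higher in BAT at 87.4 ± 4.03 against 27.8 ± 3.54 TPM.

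Of 22 genes of natriuretic and adrenergic signalling, 12 were higher in BAT and 9 in heart (median 0.50), against 39.6% and 23.1% of all genes. The natriuretic peptides were among those higher in heart, and their levels varied between its libraries. Nppa, the atrial natriuretic peptide, stood at 763, 1288, 143 and 2049 TPM in heart and 6.39, 7.28, 8.50 and 7.28 TPM in BAT, and Myl7, the atrial light chain, at 371, 555, 96.8 and 626 TPM in heart and 2.05, 2.82, 3.14 and 1.90 TPM in BAT. Heart library 3 was the lowest and heart library 4 the highest for both. The summed TPM of 11 atrial markers ran from 366 in heart library 3 to 3487 in heart library 4, against 26.7 to 37.4 in BAT, and the part of atrial tissue in the spread of these genes was not tested. In the libraries labelled Mut the BAT minus heart difference was -2.29 for Nppa and -0.70 for Myl7, and it differed from that in WT (limma interaction adjusted p = 0.044 and 0.0021). Nppb, the ventricular peptide, stood at 80.3, 48.6, 23.4 and 43.9 TPM in heart and 0.564, 0.652, 0.843 and 0.471 TPM in BAT, and Corin, the protease that activates Nppa, averaged 55.9 ± 14.7 and 0.599 ± 0.0482 TPM.

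Markers of other cells were compared because a piece of tissue holds more than its main cell. Of 13 endothelial markers, 5 were higher in BAT and 2 in heart, near the 39.6% and 23.1% of all genes. With median-ratio scaling the counts were 3 and 4. The summed TPM of these markers ranged from 338 to 403 in BAT and from 278 to 365 in heart. Pecam1 averaged 40.1 ± 4.15 and 46.9 ± 9.18 TPM and was not called (limma adjusted p = 0.19), but with median-ratio scaling its log2 difference was -0.39 and called higher in heart. Fibroblast and matrix markers summed to 242 to 425 TPM in BAT and 530 to 733 TPM in heart, with 2 of 13 higher in BAT and 6 in heart (7 and 6 in the libraries labelled Mut). Dcn, the proteoglycan decorin, stood at 86.6, 94.0, 94.8 and 109.7 TPM in BAT and 309, 337, 377 and 444 TPM in heart, whereas Col3a1, a fibrillar collagen, averaged 64.5 ± 28.4 and 28.2 ± 1.74 TPM. Macrophage markers summed to 83.9 TPM in BAT library 1 and 420 TPM in BAT library 3, and to 151 to 232 TPM in heart. Lep, leptin, a hormone of white more than brown adipocytes, moved with BAT library 3 as well, at 26.5, 43.5, 109 and 85.8 TPM in BAT against 2.12, 2.07, 1.81 and 2.39 TPM in heart, and the part of other cells in this spread was not tested. Of 4 nerve and Schwann cell markers, 2 were higher in each tissue. S100b, which brown adipocytes are known to secrete, stood at 131, 127, 177 and 159.6 TPM in BAT and 3.06, 3.30, 3.19 and 3.72 TPM in heart.

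Skeletal muscle and liver genes give the measure of the floor. Acta1, skeletal actin, averaged 278 ± 15.6 TPM in BAT and 307 ± 66.4 in heart, which are 1.56% and 1.73% of the muscle level, and Alb, serum albumin, 547 ± 47.8 and 576 ± 19.4 TPM, or 0.953% and 1.00% of the liver level. Neither was called (limma adjusted p = 0.44 and 0.39), but with median-ratio scaling Alb was called higher in heart at -0.26. Of the 16 hepatocyte markers, 0 were called by limma and 0 had an unadjusted p under 0.05, whereas with median-ratio scaling 13 were called higher in heart (median -0.25). Among genes at least 2-fold higher in 1 tissue, the other tissue was at floor level for 151 on the BAT side and 347 on the heart side, and 0 were at floor level in both.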

How the data were processed

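RNA of 32 libraries was sequenced, and the 4 WT BAT and 4 WT heart libraries were compared. The deposited values are TPM per transcript, which the authors computed with Salmon, per the submitters' processing notes. Its version, transcriptome and build were not given in the sources used here. Of 147493 transcripts, 136081 (92.26%) were matched by identifier to GENCODE M21 (GRCm38) and summed to 51510 genes. The 11412 unmatched transcripts held 0.451% to 0.896% of a library's TPM and were left out, and 54 tested genes lack their principal transcript for this reason. TPM keeps no read totals, so depth is unknown and precision is read from the spread between libraries; in a library 11712 to 12326 genes reached 1 TPM.

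Differences were fitted with limma 3.58.1 (R 4.3.3, mean-variance trend) on log2(TPM + 1), for genes averaging 1 TPM or more, two-sided, with Benjamini-Hochberg adjustment over 12333 genes. Shares of TPM were tested by exact permutation. The 42 gene lists, isoform pairs and transcripts were described without a test. The named genes are the 12 with the largest difference each way, up to 4 called members per list and direction, the 3 most abundant of a list, genes of the isoform pairs, the 10 most abundant nuclear genes of each tissue and the markers; others are said to be chosen after their values were seen. Some genes under this rule are not reported here. The comparison, members and lists were chosen with earlier results of these data known. On data simulated from this comparison, limma recovered 90 of 100 genes altered 2-fold among 12333. Few genes were altered in the simulation, whereas 62.7% were called in the comparison, so this recovery does not measure its power. Promoters come from RefSeq (GRCm38.p6), and tables and figures from Python 3.11.15 with pandas 2.3.3 and matplotlib 3.10.9. Alternatives are given in the closing section.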

Additional observations from a re-analysis of the deposited data

Results flagged for a closer look

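In 292 groups of 4 libraries (146 named genes in 2 tissues), 12 held a library whose gap to the nearest other exceeded Dixon's critical share of the group's range, and chance gives about 1 in 20 groups, or 14.6 here. In heart library 1, Bdh1 was high at 62.1 TPM (the others 18.8 to 26.1), Prkaa2 low at 14.0 TPM (16.1 to 16.3) and Slc25a3 low at 1085 TPM (1227 to 1250.0). In heart library 3, Gapdh was low at 1801 TPM (1849 to 1851) and Idh3b low at 22.4 TPM (27.6 to 27.9). In heart library 4, Cebpa was high at 9.07 TPM (6.86 to 7.03), Slc25a1 at 8.07 TPM (7.07 to 7.12) and Slc25a44 at 6.97 TPM (5.54 to 5.78). In BAT, library 3 was high for Got2 at 23.7 TPM (19.1 to 19.9) and Plin5 at 192 TPM (163 to 164), and library 2 low for Oxct1 at 80.6 TPM (90.7 to 92.5) and high for Usmg5 at 968 TPM (784 to 806). None of these values brought the 2 tissues to overlap, except for Usmg5, where BAT library 2 lay within the heart range, and Gapdh, which overlapped throughout.

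The BAT minus heart difference of the atrial genes depended on the genotype label. On the log2(TPM + 1) scale it was -6.61 for Myl7, -5.08 for Myl4, -5.37 for Sln and -6.46 for Nppa in WT, and -0.70, 0.58, -0.47 and -2.29 in the libraries labelled Mut. The limma interaction adjusted p was 0.0021 for Myl7, Myl4 and Sln and 0.044 for Nppa. Atrial markers in WT heart summed to 366 to 3487 TPM, and the part of atrial tissue in this difference was not tested.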

How the results depend on the processing

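Of 146 named genes, 132 kept their side of the threshold under every alternative run for them; among these Acta1 (0.01 without heart library 1) and Cox7a1 (-0.01 with median-ratio scaling and 0.00 when rescaled), never called, changed sign, and the other 14 kept their sign; 21 gene and alternative combinations lost a call and 15 gained one, out of 2480. Without the filter, calls of Atp5b, Col3a1, Ppargc1a and Slc2a1 were lost, and in 1 fit over all 32 libraries that of Cd36 (limma adjusted p between 0.056 and 0.088). The gene of SMIM30 lost its call without the filter (0.19), with no mean-variance trend (0.057) and without 6 single libraries, and Usmg5 without the filter (0.14), in the fit over all 32 libraries (0.13) and without 4 single libraries. With a filter at 5 TPM, fewer genes were tested, and 1782 were higher in heart (838 at least 2-fold; 1369 in libraries labelled Mut). A test against a 2-fold difference (limma treat) called 1817 genes, 920 of them higher in BAT. In libraries labelled Mut, median-ratio scaling gave 4351 higher in BAT and 4482 in heart. The rescaling left out mitochondrial genes and the 10 top genes outside the mitochondrial chromosome, among which nuclear copies of mitochondrial genes could count. It gave 4647 and 4051 in libraries labelled Mut. The cause of these shifts was not tested. In WT that rescaling gave 4064 and 4022. Leaving out 1 library gave 4435 to 5007 genes higher in BAT and 2512 to 3013 in heart, and at least 2-fold 1452 to 1639 and 1192 to 1357. The mitochondrial share difference was then -5.56 to -4.66 points. Separate isoform pairs numbered 24 to 25, and genes with another main transcript 101 to 117. Fewer libraries can only keep or raise the count of separate pairs, and they loosen the rule for main transcripts. These 2 ranges therefore do not measure stability. For the mitochondrial share the exact permutation p was 0.0286 without any 1 library. The libraries of the tissues did not overlap in this share, so the unchanged p does not measure stability. With nuclear copies added, chosen after seeing the data, the share difference was -3.82 points. At a minimum of 20 TPM, where fewer genes qualify, 51 genes differed in main transcript. With a replicate block the counts were 4911 higher in BAT and 2877 in heart. Same-numbered libraries deviated together with correlations of 0.13, 0.0897, 0.0318 and 0.144, and libraries of other numbers with -0.181 to 0.123. These values do not settle whether the numbers pair the samples. The labels do not state a pairing, and the main fit took none. TPM holds no read depth, so small differences of low genes have no counting interval.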
